A study of Mus musculus with 4 samples.

Results

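The genes described here encode the proteins of the mitochondrial ribosome. They were taken as all protein-coding RefSeq genes of mouse GRCm38 (mm10) whose symbols begin with Mrpl or Mrps followed by a digit, which gave 78 of 21887 protein-coding genes, 49 named for the large and 29 for the small subunit. Occupancy by Sub1, a single-stranded DNA-binding cofactor of transcription, was read from CUT&Tag peak lists, in which a tethered transposase cuts DNA near the antibody's target. A gene was counted as occupied when a peak overlapped it or the 1 kb on either side.

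Mitochondrial ribosomes translate the few proteins encoded by mitochondrial DNA, all of them core subunits of the oxidative phosphorylation complexes. Their protein parts are encoded in the nucleus, made in the cytosol and imported, so the organelle's translation depends on nuclear promoters. Many such promoters are rich in CpG and lack a TATA box, and NRF1, ETS factors such as GABPA, and YY1 are known regulators of nuclear genes for mitochondrial proteins.

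The 4 libraries fall into 2 groups of 2. One group is hematopoietic stem cells (HSCs), taken from bone marrow of Nup214fl/+ mice by the gate CD48-CD150+LSK, where LSK stands for cells without lineage markers that carry Sca-1 and c-Kit. In the other group, leukemia stem cells (LSCs) were sorted as cells positive for CD34, CD16/32 and c-Kit and negative for Sca-1 and lineage markers, from bone marrow of Nup214fl/+ mice whose disease was driven by MLL-AF9, a fusion oncoprotein. Both groups thus carry a floxed and a wild-type Nup214 allele, and the labels name no Cre. The cell type field reads hematopoietic stem cell for LSCs too. Age, the way the leukemia was made, pooling, and whether replicate libraries stem from different animals are not given in the sources used here, so the spread between libraries may be technical. Values given as 4 numbers in a row are always in the order HSC 1, HSC 2, LSC 1, LSC 2.

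The lists ranged from 34185 peaks (LSC 2) and 41097 (LSC 1) to 115881 (HSC 1) and 235680 (HSC 2). Read totals are unknown. The background pileup implied by the caller's folds was 3.07 in HSC 1, 7.47 in HSC 2, 4.54 in LSC 1 and 4.5 in LSC 2, so this background did not separate the groups. List length did, and counts in lists cut to equal size are therefore given beside those in the deposited lists. The labels give Sub1 as the antibody's target, yet every peak is named H4-Cut, a name found nowhere in them. Among genes of the sorting markers, Ly6a (Sca-1) had 4 peaks in each HSC list and Slamf1 (CD150) had 1 and 7, and neither had one in an LSC list. Their highest folds in HSC 1 and HSC 2 were low, 9.33 and 12.2 at Ly6a and 4.67 and 10.2 at Slamf1. Of all protein-coding genes, 7.71% had a peak in both HSC lists and neither LSC list, and 0.0959% the reverse. Kit, Cd34, Fcgr3 and Cd48 had peaks in all 4, and a peak does not measure expression. Peak lists also cannot separate the signal per cell from the number of cells.

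Promoter stretches of 6 members are shown because they carry the contrasts described below: Mrpl32 has the highest-ranking peaks, Mrpl9 has its summit at the same base in every library, Mrps11 shares its peak with Mrpl46, Mrpl37 differs most between the groups, and Mrps10 and Mrpl52 are among the lowest. Each runs 5′ to 3′ on the gene's strand from 220 bases before the annotated start to 30 bases after it, from RefSeq (GRCm38.p6). Capitals mark matches on either strand to GCATGCGC (the core of the NRF1 motif), CCGGAAG (ETS) or ATGGCGG (YY1). The Mrpl32 stretch is chr13:14613008-14613257, minus strand.
Mrpl32: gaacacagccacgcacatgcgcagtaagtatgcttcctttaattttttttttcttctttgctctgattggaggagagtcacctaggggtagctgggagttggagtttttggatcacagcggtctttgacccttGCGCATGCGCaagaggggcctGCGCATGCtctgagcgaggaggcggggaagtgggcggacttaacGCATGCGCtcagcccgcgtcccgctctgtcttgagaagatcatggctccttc
The Mrpl9 stretch is chr3:94443116-94443365, plus strand.
Mrpl9: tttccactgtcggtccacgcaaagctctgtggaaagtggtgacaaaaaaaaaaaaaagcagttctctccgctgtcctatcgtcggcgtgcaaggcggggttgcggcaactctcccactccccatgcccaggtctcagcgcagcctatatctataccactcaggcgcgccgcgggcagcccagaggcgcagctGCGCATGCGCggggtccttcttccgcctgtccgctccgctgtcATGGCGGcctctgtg
The Mrps11 stretch is chr7:78782911-78783160, plus strand, and the Mrpl46 start lies inside it on the other strand.
Mrps11: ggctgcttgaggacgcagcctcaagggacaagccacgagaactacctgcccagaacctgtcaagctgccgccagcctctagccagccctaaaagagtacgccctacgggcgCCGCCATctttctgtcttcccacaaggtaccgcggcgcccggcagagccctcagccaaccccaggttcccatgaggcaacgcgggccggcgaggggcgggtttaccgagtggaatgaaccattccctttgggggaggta
The Mrpl37 stretch is chr4:107066837-107067086, minus strand.
Mrpl37: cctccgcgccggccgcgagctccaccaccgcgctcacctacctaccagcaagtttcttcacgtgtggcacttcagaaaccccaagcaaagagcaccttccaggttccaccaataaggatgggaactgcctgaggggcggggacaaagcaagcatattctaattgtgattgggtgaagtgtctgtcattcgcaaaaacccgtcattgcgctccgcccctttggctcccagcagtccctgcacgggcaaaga
The Mrps10 stretch is chr17:47368977-47369226, plus strand.
Mrps10: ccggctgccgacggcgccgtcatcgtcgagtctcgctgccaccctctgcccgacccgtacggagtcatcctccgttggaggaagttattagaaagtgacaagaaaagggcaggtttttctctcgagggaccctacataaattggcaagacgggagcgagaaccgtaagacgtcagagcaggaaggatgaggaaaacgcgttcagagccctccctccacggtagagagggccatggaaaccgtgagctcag
The Mrpl52 stretch is chr14:54426689-54426938, plus strand.
Mrpl52: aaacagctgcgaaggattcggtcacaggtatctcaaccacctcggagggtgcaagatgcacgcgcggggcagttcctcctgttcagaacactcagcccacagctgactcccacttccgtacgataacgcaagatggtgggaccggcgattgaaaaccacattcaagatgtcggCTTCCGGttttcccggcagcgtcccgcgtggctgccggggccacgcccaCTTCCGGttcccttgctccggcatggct

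Every one of the 78 genes carried a Sub1 peak in HSC 1, HSC 2, LSC 1 and LSC 2. Over all protein-coding genes, 68.9%, 82.4%, 61.8% and 57.3% had one in the same libraries, and 55.4% had one in all 4. No member was found in one group alone, against 7.71% of all genes in HSCs alone and 0.0959% in LSCs alone. The members are short, with a median length of 7690 bp against 17169 bp over all protein-coding genes, so their windows were shorter at the median. When each list was shortened to its 34185 strongest peaks, 78, 77, 78 and 78 members kept a peak, against 53.5%, 55.9%, 59.9% and 57.3% of all genes, and 77 members against 49.3% of all genes had one in all 4. In lists of 17092 peaks the counts were 74, 76, 78 and 78, against 47.6%, 47.9%, 54.3% and 53.1%, and 74 members against 43.8% had a peak in all 4. In lists of 8546 peaks they were 68, 66, 75 and 72, against 39.2%, 38.4%, 42.3% and 42.2%, and 61 members against 32.7% of all genes had a peak in all 4.

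The strength of a member's peak was placed by its percentile, the share of the 21887 protein-coding genes whose strongest peak in the same library had a lower -log10 p. A gene without a peak is at 0, and the percentile of a strong peak does not move when weak peaks are dropped from a list. The median percentile of members was 79.5 in HSC 1, 80.8 in HSC 2, 88.9 in LSC 1 and 84.9 in LSC 2, where the median over all genes lies near 50 by construction. Both LSC values were above both HSC values. Over the HSC libraries the mean was 80.1 ± 0.935 (SD, n = 2), and over the LSC libraries it was 86.9 ± 2.83 (SD, n = 2), which is 6.8 points higher (exact permutation test over the 6 assignments of libraries, two-sided, p = 0.33, the smallest this design allows). Of the members, 76 lay at a percentile of 50 or more in every library, a level that 44.4% of all genes reached, and 13 lay at 90 or more, against 3.94%. The order of the members was alike in all libraries, with Spearman's rho over 78 genes from 0.64 (HSC 2 and LSC 1) to 0.88 (LSC 1 and LSC 2). These genes share their windows and neighbours across libraries, so rho is a description.

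**Figure D1:**
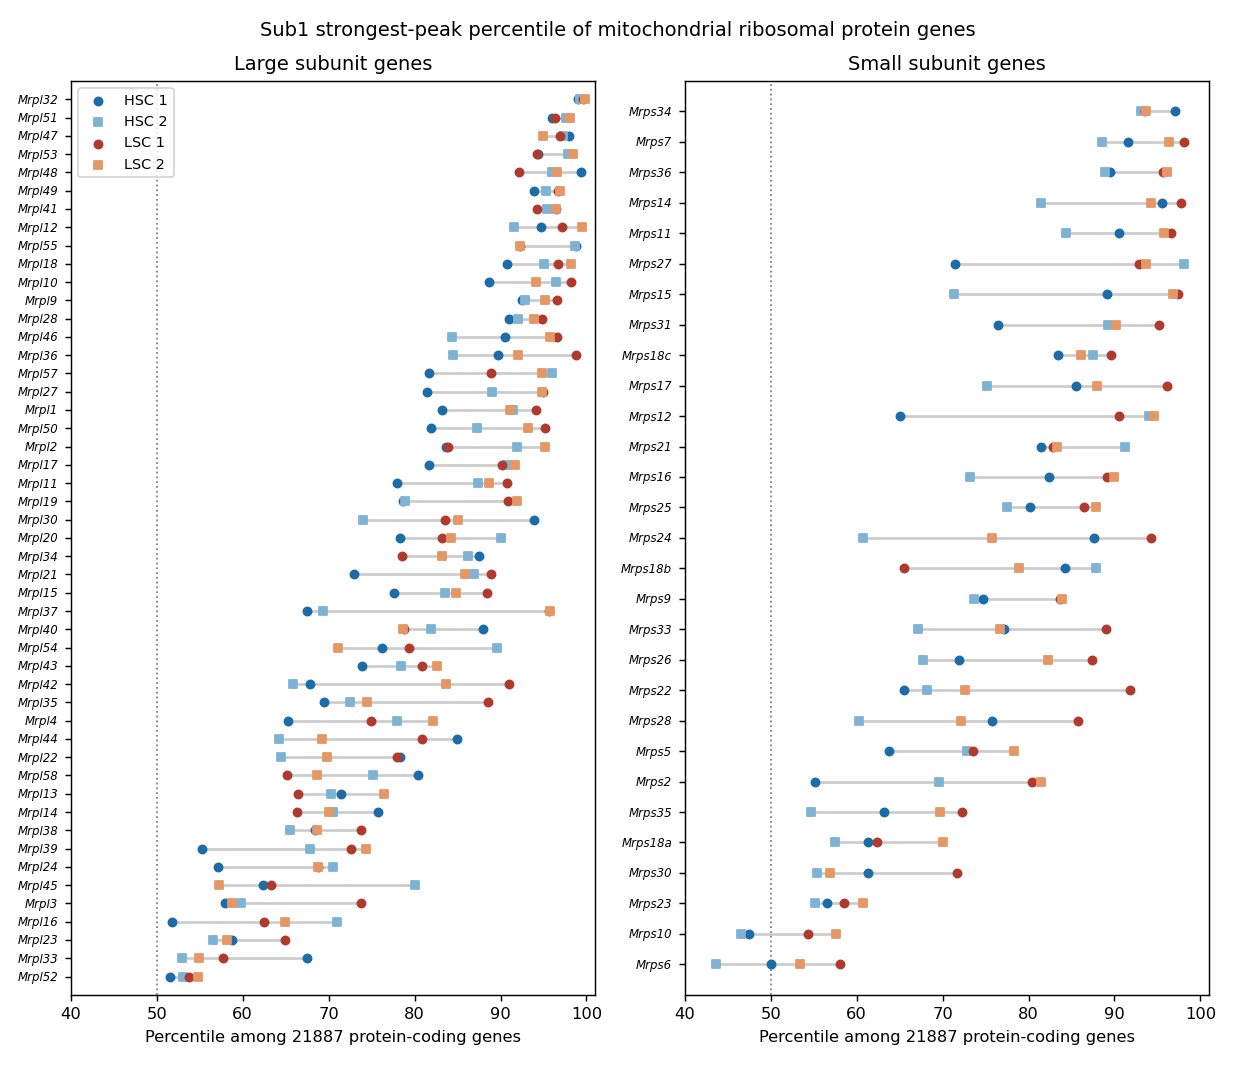
Percentile of the strongest Sub1 peak of each of 49 large subunit and 29 small subunit genes (vertical axis, ordered by mean) among 21887 protein-coding genes (horizontal axis) in HSC 1, HSC 2, LSC 1 and LSC 2; grey lines span the 4 libraries and the dotted line marks 50. Mrpl32 lies at 99.0 or more in each library, and Mrps6 and Mrps10 are the only genes with a value under 50.

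The 6 members with the highest weakest value belong to the large subunit by name. Mrpl32, whose product is cleaved by a mitochondrial protease before it joins the ribosome, reached percentiles of 99.0, 99.2, 99.6 and 99.8. The pileup at its summit, as implied by the authors' fold, was 320, 1005, 1934 and 1612. Folds and pileups are the peak caller's own values and rank peaks within a library, so their size does not compare HSCs with LSCs. Relative to the start the summits lay at -275, -257, -257 and -257 bp, upstream and towards Psma2, a proteasome subunit gene that starts 205 bp away on the other strand. Its peak ran from 14612058 to 14613992 on chromosome 13 in HSC 1 and covered both starts. Mrpl51, a part of the ribosome found in mitochondria only, lay at 96.0 and 97.6 in HSCs and at 96.3 and 98.1 in LSCs. Mrpl47 lay at 98.0, 97.3, 96.9 and 94.9, and Mrpl41, Mrpl53 and Mrpl49 at 93.9 or more in every library. For these genes the libraries differed by a few points, and for Mrpl51, Mrpl41 and Mrpl53 the groups overlapped.

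The weakest peaks lay at Mrps6, Mrps10 and Mrpl52. Mrps10, a protein of the head of the small subunit, had percentiles of 47.5, 46.5, 54.3 and 57.6, from pileups of 39, 110, 226 and 199. Mrps6 lay at 50.0, 43.6, 58.1 and 53.4. Mrpl52 stayed within a narrow range, from 51.5 in HSC 1 to 54.8 in LSC 2. These are middle ranks among all genes, and even here a peak was called in each library. Percentiles of occupied genes begin at the share of genes without a peak, which was larger in both LSC libraries. Genes with a peak were 68.9%, 82.4%, 61.8% and 57.3% in HSC 1, HSC 2, LSC 1 and LSC 2. Near this floor a higher LSC percentile does not by itself show a higher place among occupied genes. The next lowest were Mrpl16, a large subunit protein near the tRNA sites, with 51.8, 71.0, 62.5 and 64.9, then Mrpl33 with 67.5, 52.9, 57.7 and 54.9, and Mrps35 with 63.2, 54.7, 72.3 and 69.7. At Mrpl16 and Mrpl33 the values of the 2 HSC libraries were farther apart than the means of the groups.

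Most members with an annotated start had the summit of their strongest peak within 500 bp of it. Starts were annotated for 69 members, not including Mrpl15, Mrpl54, Mrpl38, Mrpl13, Mrps34, Mrps28, Mrpl19, Mrps35 and Mrpl4. The summit lay within 500 bp of a start for 58, 56, 61 and 60 members. In percent these were 84.1, 81.2, 88.4 and 87.0, where 49.6%, 36.1%, 63% and 58.7% of all genes with a peak and an annotated start did so in the same libraries. The LSC counts were above the HSC counts by 3.5 genes on average (exact permutation test, two-sided, p = 0.33). Within 250 bp of a start the counts were 50, 37, 52 and 41 of 69, and the groups overlapped. Over all genes with a peak and a start, those within 250 bp were 3802 of 12075, 2990 of 14394, 4503 of 10916 and 3600 of 10189. Among members with the summit within 500 bp, it lay downstream of the start at 36 of 58, 37 of 56, 49 of 61 and 44 of 60. These are 62.1%, 66.1%, 80.3% and 73.3%, near the 69.0%, 62.7%, 74.2% and 71.4% over all genes. The member share was below that of all genes in HSC 1 and above it in the other libraries. A downstream summit is therefore not read as a trait of the members.

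**Figure D2:**
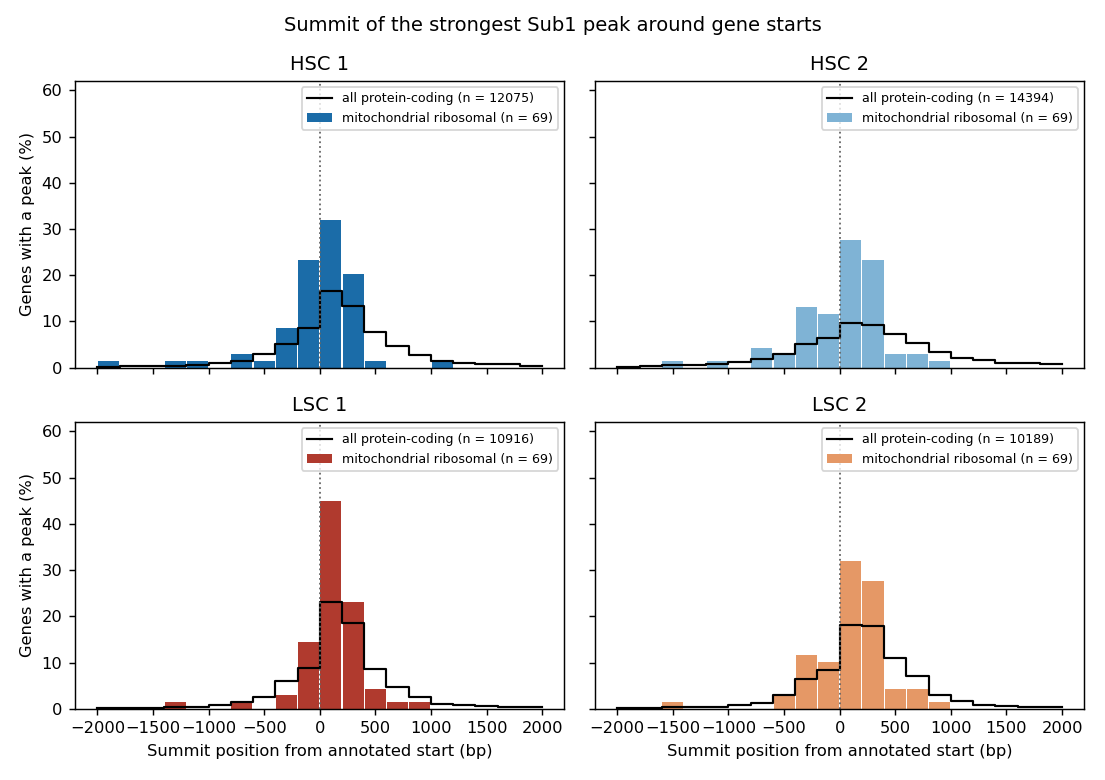
Position of the strongest peak's summit relative to the nearest annotated start (horizontal axis, bp, positive downstream, bins of 200 bp) as a percent of genes with a peak (vertical axis) in each library, for 69 mitochondrial ribosomal protein genes (bars) and for all protein-coding genes with a start and a peak (line). In each panel the bars gather in the bins next to the start more than the line does, and summits beyond the axis are not drawn.

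At several members the position was fixed to a few bases. The summit at Mrpl9 lay 46 bp downstream of its start in all 4 libraries, at base 94443382 of chromosome 3, downstream of the NRF1 and YY1 letters in the sequence printed above. At Mrpl42 the 4 summits lay 265 to 268 bp downstream, and at Mrpl28 they lay 184 to 192 bp downstream. In all, 31 members had their 4 summits within 200 bp of each other, and the median spread of the 4 summits was 283 bp. At 13 members the 4 summits were spread over more than 1000 bp. At 71 members the 4 strongest peaks shared at least 1 base. The shares over all genes were not computed for these counts, so they are not read as a trait of the members.

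A peak covered the annotated start itself in 68, 66, 69 and 69 of 69 members in HSC 1, HSC 2, LSC 1 and LSC 2, against 45.8%, 46.1%, 51.1% and 47.8% of all genes with a start. The start was covered in all 4 libraries at 66 members, against 39.4% of all genes. The exceptions were Mrpl44, an RNase III-like protein, and Mrps24, each uncovered in HSC 2 alone, and Mrpl23, a protein at the exit of the peptide tunnel, uncovered in both HSC libraries. In HSC 1 the strongest Mrpl23 peak ran from 142533192 to 142534468 on chromosome 7, downstream of the start at 142533032, and in HSC 2 it ran from 142531512 to 142532841, upstream of it.

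For a few members the strongest peak in the window belonged to another position. The Mrpl10 summits lay 9428 to 9710 bp downstream of its start, beyond the end of the gene, under peaks that also overlapped the window of Osbpl7. A weaker peak covered the Mrpl10 start, with folds of 35.9, 40.3, 176 and 111. Mrpl34 summits lay at -1274, -1439, -1379 and -1459 bp from its start, under peaks shared with Abhd8. Mrpl58 encodes a peptidyl-tRNA hydrolase that is built into the ribosome. Its strongest HSC peaks lay 9439 and 9074 bp downstream, shared with Atp5h, an ATP synthase subunit gene, and its LSC summits lay 40 and 177 bp downstream. Peaks at such genes cannot be assigned from the lists.

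Paired, oppositely oriented starts were common among the members. A start of another protein-coding gene lay on the other strand within 1000 bp of the start of 25 of 69 members (36.2%), against 9.61% of 17492 genes with an annotated start, a property of the annotation and not of the peaks. The closest pairs were Mrpl21 with Ighmbp2 at 32 bp, Mrpl48 with Rab6a at -36 bp, where the transcripts overlap, Mrpl46 with Mrps11 at 42 bp and Mrpl27 with Eme1 at 48 bp. Other partners also serve mitochondria, such as Sars2, the mitochondrial seryl-tRNA synthetase gene, opposite Mrps12, Twnk, the mitochondrial DNA helicase gene, opposite Mrpl43, and Ndufb5, a complex I subunit gene, opposite Mrpl47. Mrpl46 and Mrps11 encode a large and a small subunit protein and shared 1 peak in every library, at percentiles of 90.5, 84.4, 96.6 and 95.8 in HSC 1, HSC 2, LSC 1 and LSC 2. That peak ran from 78782183 to 78783693 on chromosome 7 in HSC 1.

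Members with such a partner ranked higher than those without. Their median percentiles were 84.2, 88.5, 92.8 and 94.8 for 25 genes, against 78.1, 72.8, 86.9 and 82.8 for the 44 others. The same held over all genes with a peak in all 4 libraries, with medians of 83.0, 83.8, 84.8 and 85.4 for 1584 genes with a partner and of 70.2, 70.3, 70.1 and 69.9 for 8284 without. Across all members, 36 shared their strongest peak with the window of another protein-coding gene in every library (46.2%, against 28.4% of genes with a peak in all 4). With every shared peak left out, 44 members still had a peak in all 4 libraries (56.4%, against 42.9% of all genes), a smaller gap than with shared peaks, and 18, 13, 23 and 28 had none in HSC 1, HSC 2, LSC 1 and LSC 2. Of the members, 9 then had a peak in both HSC libraries alone (11.5%, against 10% of all genes) and 1 in both LSC libraries alone (1.28%, against 0.21%). The group medians still differed in the same direction, by 5.51 points. With a gene without an unshared peak at 0, percentiles were higher in both LSC libraries at 27 members and in both HSC libraries at 10. With shared peaks these counts are 38 and 7, as given below. The shares over all genes were not computed for the counts without shared peaks.

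Between the cell types, member percentiles were more often higher in LSCs than in HSCs. Both LSC values were above both HSC values at 38 of 78 members (48.7%), where 26.7% of 12122 genes with a peak in all 4 libraries did so, and 24.6% of those with a mean percentile of at least 50. The reverse held for 7 members (8.97%), against 21.4% and 22.3%, and the groups overlapped at 33. The 38 include Mrps6, Mrps10, Mrps23 and Mrpl52, which rank low, where the limit given above for percentiles near the floor applies. They also include both Mrpl46 and Mrps11, which share their peak. Genes are not replicates, and the exact permutation test of a single gene over these libraries cannot go below p = 0.33. When genes were placed by the peak over their start, a measure added after the data were seen, the counts were 28 of 66 (42.4%, against 19.8% of 6892 genes) and 7 of 66 (10.6%, against 24.9%). These 7 are not all the same genes as before. By this measure the groups overlapped at Mrpl58 and Mrpl40, and Mrpl45 and Mrpl33 were higher in HSCs. The groups also overlapped at Mrps6, Mrps10, Mrps23 and Mrpl52. Leaving out HSC 1, HSC 2, LSC 1 or LSC 2 gave 49, 54, 46 and 49 members higher in LSCs, or 62.8%, 69.2%, 59% and 62.8%, against 43.7%, 43.1%, 36.9% and 38.4% of all genes. The members higher in HSCs were then 15, 13, 9 and 11, or 19.2%, 16.7%, 11.5% and 14.1%, against 37.6%, 35.1%, 29.4% and 31.8%.

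**Figure D3:**
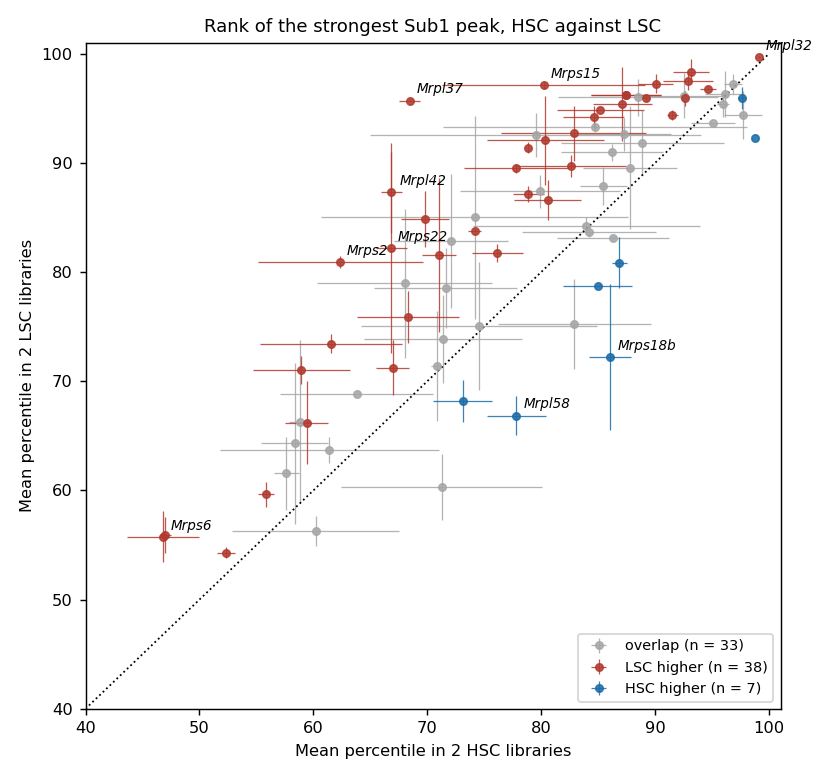
Mean percentile of each mitochondrial ribosomal protein gene in 2 HSC libraries (horizontal axis) and 2 LSC libraries (vertical axis); bars span the 2 libraries of a group, and colours mark genes whose groups do not overlap. The 38 genes higher in LSCs lie above the dotted line of equal means and the 7 higher in HSCs below it, with Mrpl37 farthest above.

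The largest difference was at Mrpl37, a large subunit protein specific to mitochondria. Its percentiles were 67.5, 69.4, 95.6 and 95.8, a difference of means of 27.3 points. The groups were far apart beside the spread within either one. All 4 summits lay 146 to 215 bp downstream of the start, under peaks shared with Cyb5rl, which starts 128 bp away on the other strand. Mrpl42 followed with 67.8 and 65.9 against 91.0 and 83.6. Mrps2 had 55.1 and 69.6 against 80.4 and 81.5. Mrps15 had 89.1 and 71.3 against 97.4 and 96.8. At Mrps2 and Mrps15 the HSC libraries lay over 10 points apart, and at Mrps22, a protein whose human gene is mutated in a mitochondrial disease, 65.5 and 68.2 stood against 91.8 and 72.6, so the LSC libraries did.

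In the other direction the largest difference was at Mrps18b, one of 3 paralogs related to bacterial S18, with 84.2 and 87.9 in HSCs and 65.5 and 78.9 in LSCs. Its peak was shared with Ppp1r10, a phosphatase regulator gene, in all 4 libraries. Mrps18c, the paralog in the usual S18 position, had 83.4, 87.5, 89.6 and 86.1 in HSC 1, HSC 2, LSC 1 and LSC 2, and Mrps18a, whose product sits in the large subunit despite its name, had 61.3, 57.5, 62.4 and 70.0. Mrps18a was the lowest of the paralogs in every library, and at Mrps18c the groups overlapped. Mrpl58 had 80.4 and 75.2 against 65.1 and 68.6, its HSC values resting on the peak shared with Atp5h. Mrpl55 had 98.8 and 98.7 against 92.3 and 92.3, and Mrpl40 and Mrpl34 differed by 6.25 and 6 points. At Mrpl40 too the HSC and LSC summits lay apart, at -1119 and -1136 bp from the start in HSCs and at 172 and 219 bp in LSCs.

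With lists of 34185 peaks, no member had a peak in both libraries of one group and in neither of the other, where 0.489% of all genes were so in HSCs and 2.59% in LSCs. In lists of 17092 peaks, Mrps6 and Mrps10 were found in both LSC libraries alone, against 3.87% of all genes. In lists of 8546 peaks these were Mrps23, Mrpl23 and Mrpl3, against 2.22%, and Mrpl52 and Mrps10 were found in no library. In both shorter lists no member was in HSCs alone, against 0.356% and 0.991%. The members found in LSCs alone thus changed with list length and came from the lower end of the ranking.

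Genes named for the small subunit had the lower percentiles in HSCs. Their medians were 76.6, 73.2, 89.0 and 83.3, and those of large subunit genes were 81.4, 84.5, 88.9 and 85.9. The small minus the large median was -4.85, -11.3, 0.0914 and -2.55, higher in both LSC libraries (difference of means 6.86 points, exact permutation test, two-sided, p = 0.33, the smallest possible). Groups did not overlap at 18 of 29 small subunit genes with higher LSC values (62.1%) and at 1 with higher HSC values (3.45%). Of 49 large subunit genes the counts were 20 (40.8%) and 6 (12.2%), where the shares over all genes with a peak in all 4 libraries were 26.7% and 21.4%. The symbol is an imperfect guide, since the products of Mrps30 and Mrps18a sit in the large subunit and that of Mrps36 is a subunit of the 2-oxoglutarate dehydrogenase complex.

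Members with central roles in decoding and factor binding were spread over the range. Mrpl12 forms the stalk that recruits translation factors and has been reported to bind the mitochondrial RNA polymerase. It had percentiles of 94.7 and 91.6 in HSCs and of 97.2 and 99.5 in LSCs. Mrpl11, at the base of that stalk, had 77.9 and 87.4 against 90.7 and 88.7. Both ranked higher in LSCs without overlap. Mrps12, the protein of the decoding centre, had 65, 94.0, 90.5 and 94.6 in HSC 1, HSC 2, LSC 1 and LSC 2, so HSC 1 stood apart from the other libraries. Mrps5, near the path of the messenger RNA, had 63.8 and 72.8 against 73.5 and 78.3. Mrpl3 and Mrpl4, which reach towards the catalytic centre and line the tunnel, had 57.9, 59.8, 73.8 and 58.8, and 65.3, 77.9, 74.9 and 82.2, with overlap of the groups. Mrpl44 had 84.9, 64.2, 80.9 and 69.2 and Mrps30 had 61.3, 55.4, 71.7 and 56.9, and in both the first library of each group was the higher.

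Strongest peaks at members were wider at the median than over all genes in each library, most clearly in HSC 2. Their median was 1688.5, 2464, 2528 and 2881 bp (difference of means 628 bp, exact permutation test, two-sided, p = 0.33), against 1500, 1420.5, 2353 and 2789 bp over all genes with a peak. Peaks wider than 5000 bp were found at 10, 9, 4 and 15 members (12.8%, 11.5%, 5.13% and 19.2%), close to the 9.78%, 9.85%, 6.5% and 16% of all genes with a peak. The widest lay at Mrpl49 in LSC 2, at 26817 bp, where it also reached the windows of Fau, Syvn1, Znhit2, Tm7sf2, Vps51 and Tmem262, and in LSC 1 the Mrpl49 peak was 4386 bp wide. The median number of peaks per member was 3, 3, 2 and 1, and over all genes it was 2, 4, 1 and 1, which follows list length in the same direction. Mrpl48 had the most in HSCs, with 20 and 24, and had 4 and 4 in LSCs, over a gene that spans chr7:100545779-100608301.

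In the 300-base promoter windows of RefSeq, from 250 bases before the start to 50 after it, 1 per gene at its outermost annotated start, ETS and YY1 letters were more frequent at members than over all promoters. CCGGAAG was found on either strand in 24 of 69 members (34.8%), against 11.9% of 17492 protein-coding promoters and 19% of the 9868 whose gene had a peak in all 4 libraries. ATGGCGG was found in 13 members (18.8%), against 5.44% and 8.5%. The NRF1 core GCATGCGC was found in 8 members (11.6%), against 3.61% and 5.48%, and the full NRF1 palindrome, which adds GC before that core, in 3 members (4.35%, against 1.33% and 2.14%), which are Mrpl32, Mrpl9 and Mrpl39. TATAAA was found in 4 members (5.8%), against 13.3% and 6.95%, GGGCGG in 34 (49.3%, against 46.3% and 63.3%) and CCAAT in 27 (39.1%, against 39.2% and 39.3%). TGACGTCA was found in 2 members (2.9%, against 2.33% and 3.26%) and CACGTG in 5 (7.25%, against 7.91% and 10%). The median GC content was 58.3% at members, 56.3% over all promoters and 60.7% at promoters of genes with a peak in all 4 libraries. The ratio of observed to expected CpG was 0.818, 0.577 and 0.764, so against occupied genes the members were lower in GC and close in CpG. Members with CCGGAAG had medians of 77.7, 86.5, 88.2 and 82.9 in HSC 1, HSC 2, LSC 1 and LSC 2, and those without had 83.7, 81.5, 92.2 and 89.9, so the former were higher in HSC 2 and lower in HSC 1, LSC 1 and LSC 2. The 13 members with ATGGCGG had medians of 71.4, 72.8, 92.8 and 93.2, and those without had 82.0, 83.1, 89.1 and 86.0, so the former were lower in both HSC libraries and higher in both LSC libraries. The 27 members with CCAAT went the same way, with 78.3, 77.5, 90.7 and 89.9 against 81.7, 83.1, 88.9 and 83.3. CCAAT was no more frequent at members than over all promoters. The 8 members with GCATGCGC went the other way, with 82.9, 89.3, 84.0 and 85.3 against 81.4, 81.5, 89.1 and 86.1. None of these differences was tested, and none is claimed as particular to a motif. Mrpl52, among the lowest in rank, holds CCGGAAG in its printed stretch, and the printed stretches of Mrps10 and Mrpl37 hold none of the letters marked by capitals, though the longer Mrpl37 window holds ATGGCGG.

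Other genes of mitochondrial gene expression were occupied as widely. All 5 mitochondrial ribosomal proteins under other symbols (Dap3, Ptcd3, Chchd1, Aurkaip1 and Gadd45gip1), 24 of 24 ribosome assembly genes, 17 of 17 mitochondrial aminoacyl-tRNA synthetase genes, 20 of 20 genes of mitochondrial DNA transcription and upkeep and 11 of 11 regulators had a peak in all 4 libraries. Of 15 translation factor genes, 14 did, and Mss51 had none in LSC 2. Over all protein-coding genes, 55.4% had a peak in all 4 libraries. Groups did not overlap, with LSCs higher, at 10 of 17 synthetase genes (58.8%, against 26.7% of all genes), among them Mars2 with 57.7 and 83.1 against 88.5 and 92.1, and at 7 of 15 translation factor genes (46.7%), among them the initiation factor gene Mtif3 with 61.3 and 60.1 against 85.6 and 84.3. The reverse held at 1 synthetase gene, Lars2 (5.88%, against 21.4% of all genes), and at 2 translation factor genes, Guf1 and Tufm (13.3%). For the 5 ribosomal proteins under other symbols the counts were 1 (Gadd45gip1) and 1 (Aurkaip1), or 20% each. For the 24 assembly genes the counts were 3 and 3 (12.5% each), below both shares over all genes. For the 20 genes of DNA transcription and upkeep they were 5 and 4 (25% and 20%), near those shares. The 5 include Twnk, whose percentiles equal those of its partner Mrpl43 in every library. Likewise the percentiles of the synthetase gene Sars2 equal those of its partner Mrps12. These lists are therefore not wholly separate from the members. Of the 11 regulators, Myc and Ppargc1b were higher in LSCs (18.2%, against 26.7% of all genes). Yy1, Sp1, Esrra and Nrf1 were higher in HSCs (36.4%, against 21.4%). The gaps differed in size, with Yy1 at 91.1 and 83.4 against 77.3 and 64.1. Nrf1 was at 71.9 and 74.4 against 70.2 and 70.4. With so few genes, nothing is claimed about the regulators as a set.

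Set beside the members, 76 cytosolic ribosomal protein genes all had a peak in every library, against 55.4% of all genes. Their median percentiles were 82.3, 86.7, 87.6 and 88.1. LSCs were higher without overlap at 24 of them (31.6%) and HSCs at 13 (17.1%), near the 26.7% and 21.4% of all genes. Of 85 oxidative phosphorylation subunit genes 81 had a peak in all 4 libraries, against the same 55.4%. The medians over the 85 were 81.4, 80.8, 88.5 and 86.5. Among those 81 the counts were 27 and 6, which are 31.8% and 7.06% of the 85. The 6 include Ndufb5, whose percentiles equal those of Mrpl47 in every library. Those not found everywhere were Cox8c, Cox7b2, Cox6a2 and Cox8b, isoforms known from testis, heart or skeletal muscle. Cox7b2 and Cox8b had peaks in both HSC libraries and in neither LSC library, and they are not among the 6. The strongest peaks of cytosolic ribosomal protein genes were wider, with medians of 3502.5, 4360, 3509.5 and 4532 bp. No test of the differences between these lists was made, and nothing is claimed as particular to one of them.

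**Figure D4:**
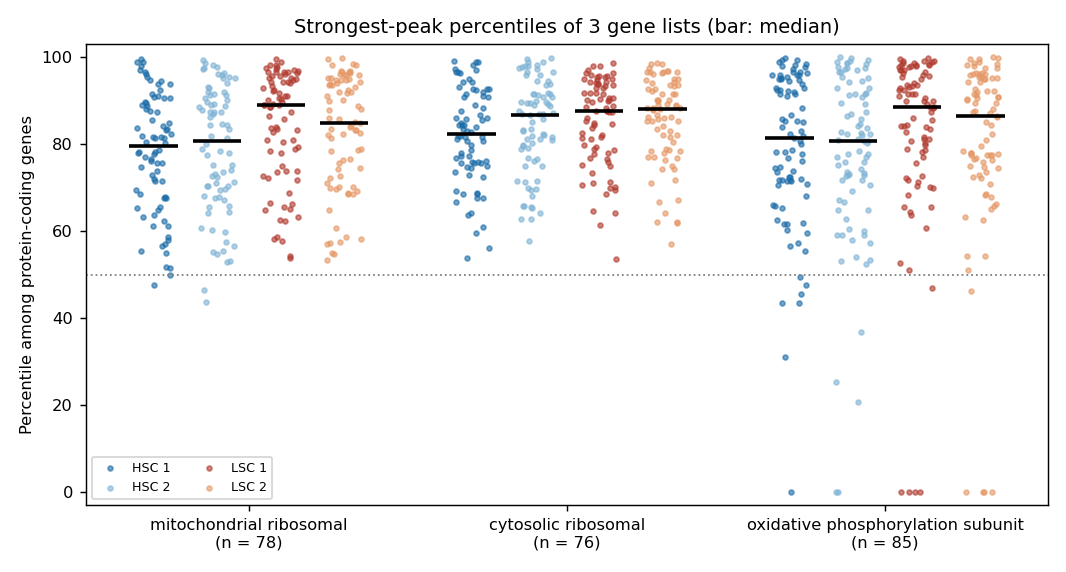
Percentile of the strongest Sub1 peak (vertical axis; 0 means no peak) of each gene of 3 lists in HSC 1, HSC 2, LSC 1 and LSC 2 (points, spread sideways at random), with black bars at the median and a dotted line at 50. Medians of the mitochondrial ribosomal list run from 79.5 to 88.9, close to those of the other lists, and only the oxidative phosphorylation list has genes at 0.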

How the data were processed

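Sub1 CUT&Tag was measured in 2 HSC and 2 LSC libraries, grouped by their titles, with 1 deposited peak list each. Per the submitters' processing notes, FastQC 0.11.5, Bowtie2 2.2.9, MACS2 and ChIPseeker were used with mm10. Libraries were amplified by PCR, per the labels' protocols, and how duplicates and controls were handled is not given in the sources used here. The deposited lists give for each peak a score, a fold (a ratio of pileup to background), and -log10 p and -log10 q values by the authors' peak caller. The fold was used within a library, except in an alternative with a minimum fold of 20, which sets 1 limit on values whose level differs between the groups. Folds under 1000 were whole multiples of 1 step within 0.02 of a step in 100% of peaks, which gave the background and the pileup. No read totals were given, so depth is otherwise unknown.

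Genes, starts and promoters came from RefSeq tables of GRCm38.p6, and all 78 members matched. Overlaps, percentiles and exact permutation tests were computed in Python 3.11.15 with SciPy 1.17.1, pandas 2.3.3 and NumPy 2.4.6 and drawn with matplotlib 3.10.9, and overlap and ranking were tested on simulated data. Members, gene lists and motifs were chosen with earlier results of these data known. Of the other lists' symbols, C12orf65, Mtrfr, Wbscr16 and Mrpp3 did not match. Genes named are those at the ends of the ranking, of the difference between groups and of the distance to a neighbouring start, those found in one group alone, and a fixed set by role; Mrpl9, Mrpl10, Mrpl28, Mrpl48 and Mrps24, and the genes of other lists with values, were chosen after their values were seen. Alternatives were stricter thresholds, equal-sized lists, other windows, summits, unshared peaks, other distances, and leaving out each library.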

Additional observations from a re-analysis of the deposited data

How the results depend on the processing

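The median percentile was higher in LSCs under the 6 alternatives that changed any library's value (by 5.51 to 7.76 points). The same held on average for width under 3 and for the count of summits near the start under 5. Not all of these kept the groups apart. Widths overlapped at a fold of at least 20 (1904, 2716, 2528 and 2881 bp). Summit counts overlapped within 250 bp of the start (50, 37, 52 and 41) and without shared peaks (31, 30, 34 and 30). The other 11, 6 and 6 alternatives left every library's value as it was (for the percentile, shorter lists and ranking by fold among them) or left out a library where the groups do not overlap, so they could not turn the direction and show nothing of stability. The number of members with a peak in all 4 libraries was 44 without peaks shared with another gene, in place of 78, and stayed within 1.5 times under the other 15. Members in HSCs alone numbered 9 without shared peaks and 0 otherwise. Members in LSCs alone numbered 5 at a fold of at least 20 (6.41%, against 4.25% of all genes), a limit that median folds over all genes of 23.82 and 22.08 in HSCs and 102.6 and 73.87 in LSCs make stricter in HSCs, 2 and 3 in lists of 17092 and 8546 peaks, 1 without shared peaks, and 0 otherwise. Leaving out each library in turn gave differences of 4.8 to 8.81 points in the median percentile, 240 to 1016 bp in width and 2.5 to 4.5 genes in summits near the start, with 78 members occupied, 0 in one group alone, 46 to 54 with higher percentiles in LSCs and 9 to 15 with higher percentiles in HSCs; fewer libraries make non-overlap easier. With the replicate number as a block (exact sign-flip test) the difference was 6.8 points with p = 0.5, the smallest 2 pairs allow, and likewise 628 bp and 3.5 genes. The deviations of same-numbered libraries correlated with r = 0.34 over members, but 2 pairs do not show that the numbers pair the samples. Without read totals or a control, a peak missing from a list was not detectable at its depth and threshold, not absent.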

Other observations

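The annotation also holds 6 pseudogenes of mitochondrial ribosomal protein genes, which carry copies of the coding sequence away from the parent promoter. Only Mrpl23-ps1, on chromosome 2 from 74591359 to 74591915, had a peak within 1 kb, in HSC 1 alone and with a fold of 4.18. The other 5 had none in any library. Over all 9944 annotated pseudogenes, 11%, 27.6%, 5.01% and 4.41% had a peak within 1 kb in HSC 1, HSC 2, LSC 1 and LSC 2. Reads that map to several places may have been dropped before the lists were made, and this was not tested.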
